A study of Homo sapiens with 2 samples.

Results

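JQ1 is a small molecule that occupies the bromodomains of the BET proteins, such as BRD2. It was given to K562 cells, a human chronic myeloid leukaemia line that makes fetal and embryonic globin, for 6 h, and the mRNA of 6 JQ1 wells was compared with that of 24 wells given DMSO, the vehicle. The wells were taken by the compound name in the deposited annotation, and they are 30 of 192 wells on 2 plates of 96 with the same layout. JQ1 stood in well numbers 22, 49 and 61 of each plate. MAC-seq sequences the 3′ ends of mRNAs. A primer marks the cDNA of each well before the wells of a plate are joined. Synthetic ERCC RNAs are present in the reverse transcription mix. No dose is given for any compound. The series calls its duplicates technical, so p-values measure only the spread between wells of 1 experiment. Fewer cells in a well and less RNA per cell cannot be told apart.

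BET bromodomains bind acetylated histone tails at enhancers and promoters. The kinase complex P-TEFb (CDK9 with a cyclin T) releases RNA polymerase II from its pause near the promoter, and HEXIM1 holds P-TEFb inactive together with 7SK RNA. In blood cells BET inhibitors are known for lowering mRNAs that depend on large enhancers, MYC among them, and a rise of HEXIM1 mRNA is widely used as a sign that such a compound has reached its target.

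Where a well lies matters for this comparison. If wells are numbered along the rows, an assumption the labels do not settle, well numbers 49 and 61 lie in the first plate column with the DMSO well numbers 1, 13, 73 and 85, and well number 22 lies elsewhere. So 4 of 6 JQ1 wells but 8 of 24 DMSO wells were in the first column. Human counts there were 224480 to 291109 per JQ1 well and 173553 to 462611 per DMSO well; in the other columns they were 743691 and 1009180 in the JQ1 wells and 446074 to 1030814 in the DMSO wells. Among DMSO wells alone 1259 genes were higher and 1139 lower in the first column than in the others, 32.5% of the 7389 genes tested. All 10 K562 erythroid markers had a median above 1 CPM (counts of a gene scaled to a common well total) in both groups. Summed B cell markers reached at most 5.77 CPM in JQ1 wells and 6.3 in DMSO wells, and monocyte markers 14.1 and 17.9. T cell markers summed to 46.3 to 96.2 CPM in JQ1 wells and 52.5 to 107 CPM in DMSO wells. The 5 epithelial markers summed to 567 to 624 CPM in JQ1 wells and 396 to 504 in DMSO wells, mostly KRT8 and KRT18. Among them CDH1 was at 0. The part of these markers in the results was not tested.

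With plate and first column as terms, 988 genes rose in JQ1 wells (13.4% of 7389) and 827 fell (11.2%) by edgeR's quasi-likelihood test at an adjusted p of 0.05. Among called genes the falls were larger: the median log2 fold change was 0.36 for rises and -0.76 for falls. A size of 1 was reached by 71 rises and 233 falls. Genes that fell also stood at lower levels, with a median log2 CPM of 5.15 against 7.33 for genes that rose. Whether the sizes differ between genes of equal level was not tested. Without the column term 524 were called higher (7.09%) and 473 lower (6.4%), 13.5% in all. Both fits called 968 genes, which is 53.3% of the calls made with the term and 97.1% of those made without it. Of the genes called with the term, 64.1% had all 6 JQ1 wells on the same side of the DMSO mean of their own plate and column class. Among all genes tested, the called ones included, it was 21%. The calls were made on these same wells, so the higher share is no separate support for them. Fold changes are relative to the other genes: scaling to ERCC moved the median over all genes by -0.23, with 160 genes higher and 1524 lower, and put 208 of the 988 rises below 0. With library size alone the shift was -0.15, with 381 higher and 1443 lower. Leaving out the JQ1 well number 22 of plate 2, the deepest, left 556 higher and 505 lower.

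The same genes could be followed within each column class. In the first column, with 4 JQ1 and 8 DMSO wells, 260 genes were higher (6.57%) and 234 lower (5.91%), 12.5% of 3957 tested. In the other columns, with 2 JQ1 and 16 DMSO wells, 704 were higher (8.66%) and 517 lower (6.36%), 15% of 8126 tested. Of the 3957 genes tested in both classes 344 were called in both, all with the same sign; they make up 69.6% of the first-column calls and 36.9% of the calls outside it. The test of the difference itself, JQ1 by column, called 0 of 7389 genes by edgeR, with 401 at an unadjusted p under 0.05, and 0 by limma-voom (422 unadjusted). Its 95% intervals had a median half-width of 0.75 on the log2 scale, before adjustment for the number of genes tested. The adjusted test needs larger differences still, so 0 calls do not show that the classes were alike. JQ1 by plate also gave 0 genes (373 unadjusted). The 3 JQ1 positions compared with each other gave 0 calls by edgeR for 49 against 61 (434 genes unadjusted), 49 against 22 (513 unadjusted) and 61 against 22. Limma-voom called 1 gene in each direction for 61 against 22 (381 unadjusted) and 0 for the other pairs. Set against DMSO singly, position 22 gave 751 genes higher (10.2%) and 447 lower (6.05%), 16.2% in all; position 49 gave 199 (2.69%) and 147 (1.99%), 4.68% in all; and position 61 gave 167 (2.26%) and 103 (1.39%), 3.65% in all. The wells at positions 49 and 61 were the shallower ones.

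**Figure D1:**
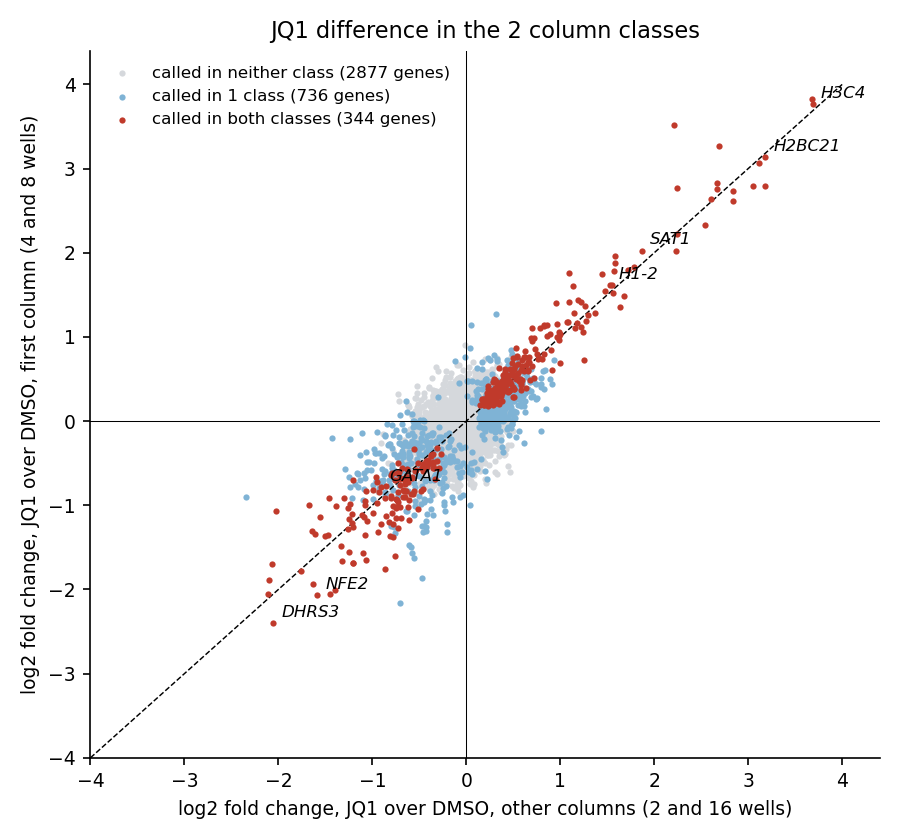
Each point is a gene tested in both column classes, with its log2 fold change of JQ1 over DMSO outside the first column (x axis, 2 and 16 wells) and in it (y axis, 4 and 8 wells); the dashed line marks equal values. The 344 genes called in both classes (red) lie in the upper right and lower left only.

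HEXIM1, the P-TEFb inhibitor, rose. Outside the first column it had 45.4 and 51.9 CPM in the 2 JQ1 wells, against 11.6 to 36 CPM (median 20.5) in 16 DMSO wells. In the first column the 4 JQ1 wells held 79.5, 83.3, 122 and 145 CPM, against 24.3 to 48.4 CPM (median 36.4) in 8 DMSO wells. The groups did not overlap in either class, although the DMSO wells of the first column were themselves higher than the others by 0.69 on the log2 scale (SE 0.19, adjusted p = 0.00296). The log2 fold change was 1.39 (SE 0.16, adjusted p = 3.33e-12 by edgeR), with 1.60 in the first column and 1.135 outside it.

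Of 21 genes tested for P-TEFb, the BET proteins and elongation factors, 5 rose and 4 fell, beside 13.4% and 11.2% of all genes. The list median was -0.04 beside 0.01 over all genes. With ERCC scaling 2 were higher and 6 lower, and without plate 1 it was 3 and 1. BRD2, a BET protein, stood at 0.67 (SE 0.13, adjusted p = 4.18e-05); it was at 0.84 in the first column and at 0.48 outside it, where the call was lost (adjusted p = 0.0592). CDK9, the P-TEFb kinase, was at 0.76 (SE 0.26, adjusted p = 0.0208), but 4 of 6 JQ1 wells were on that side, and it was at 0.29 and not called without plate 1. MEPCE, the 7SK capping enzyme, rose by 0.49, and NELFA, a subunit of the negative elongation factor, was at -1.0 (SE 0.22, adjusted p = 0.000272), with 5 of 6 JQ1 wells on that side and no call in the first column alone (adjusted p = 0.118). BRD3 had too few counts to be tested.

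MYC, the growth regulator most often named as a BET target, fell modestly. It had 76.7 and 77.3 CPM in JQ1 wells outside the first column, against 58.2 to 147 CPM (median 113) in DMSO wells, and 67.2 to 92.6 CPM in JQ1 wells of the first column, against 89.9 to 153 CPM (median 120) in DMSO wells. All 6 JQ1 wells lay below the DMSO mean of their plate and class, but the ranges overlapped in both classes. The log2 fold change was -0.59 (SE 0.12, adjusted p = 3.42e-05 by edgeR), with -0.67 in the first column and -0.58 outside it. Of 35 genes for MYC and ribosome biogenesis, 15 fell and 4 rose (median -0.29), beside 11.2% and 13.4% of all genes tested. NOP16, a nucleolar protein, was at -0.65 (SE 0.08), WDR43, of the small-subunit processome, at -1.04 (SE 0.20), and CAD, which starts pyrimidine synthesis, at -0.98 (SE 0.19), while ODC1, the first enzyme of polyamine synthesis, was at 0.67 (SE 0.07). In the first column 5 of 29 members were lower (median -0.10), and outside it 13 of 35 (median -0.35). Fewer members could be tested in the first column, and the difference between the classes was not tested for the list. Without the plate 2 well number 22 there were 7 lower, and without the column term 6.

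Of 15 genes listed as blood cell markers of BET inhibition 7 could be tested, of which 3 fell (median -0.59) and 1, HEXIM1, rose. Over all genes tested 11.2% fell and 13.4% rose. ZMYND8, a reader of acetylated histones, had 3.13 and 5.77 CPM in JQ1 wells outside the first column, against 13 to 30 CPM in DMSO wells, and 0.00 to 10.6 CPM in JQ1 wells of the first column, against 12.7 to 48.4 CPM in DMSO wells. The groups stayed apart in both classes, and its log2 fold change was -2.16 (SE 0.33, adjusted p = 1.22e-07). FOSL1, an AP-1 subunit, was at -1.75 (SE 0.38). CDK6 at -0.61 (SE 0.26, adjusted p = 0.0671) and CCND2 at 0.18 (SE 0.24, adjusted p = 0.642) missed the threshold. SERPINI1 and BCL2 were too low to test, with at most 16.7 and 1.15 CPM in a JQ1 well, against 11.2 and 3.74 CPM in a DMSO well.

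**Figure D2:**
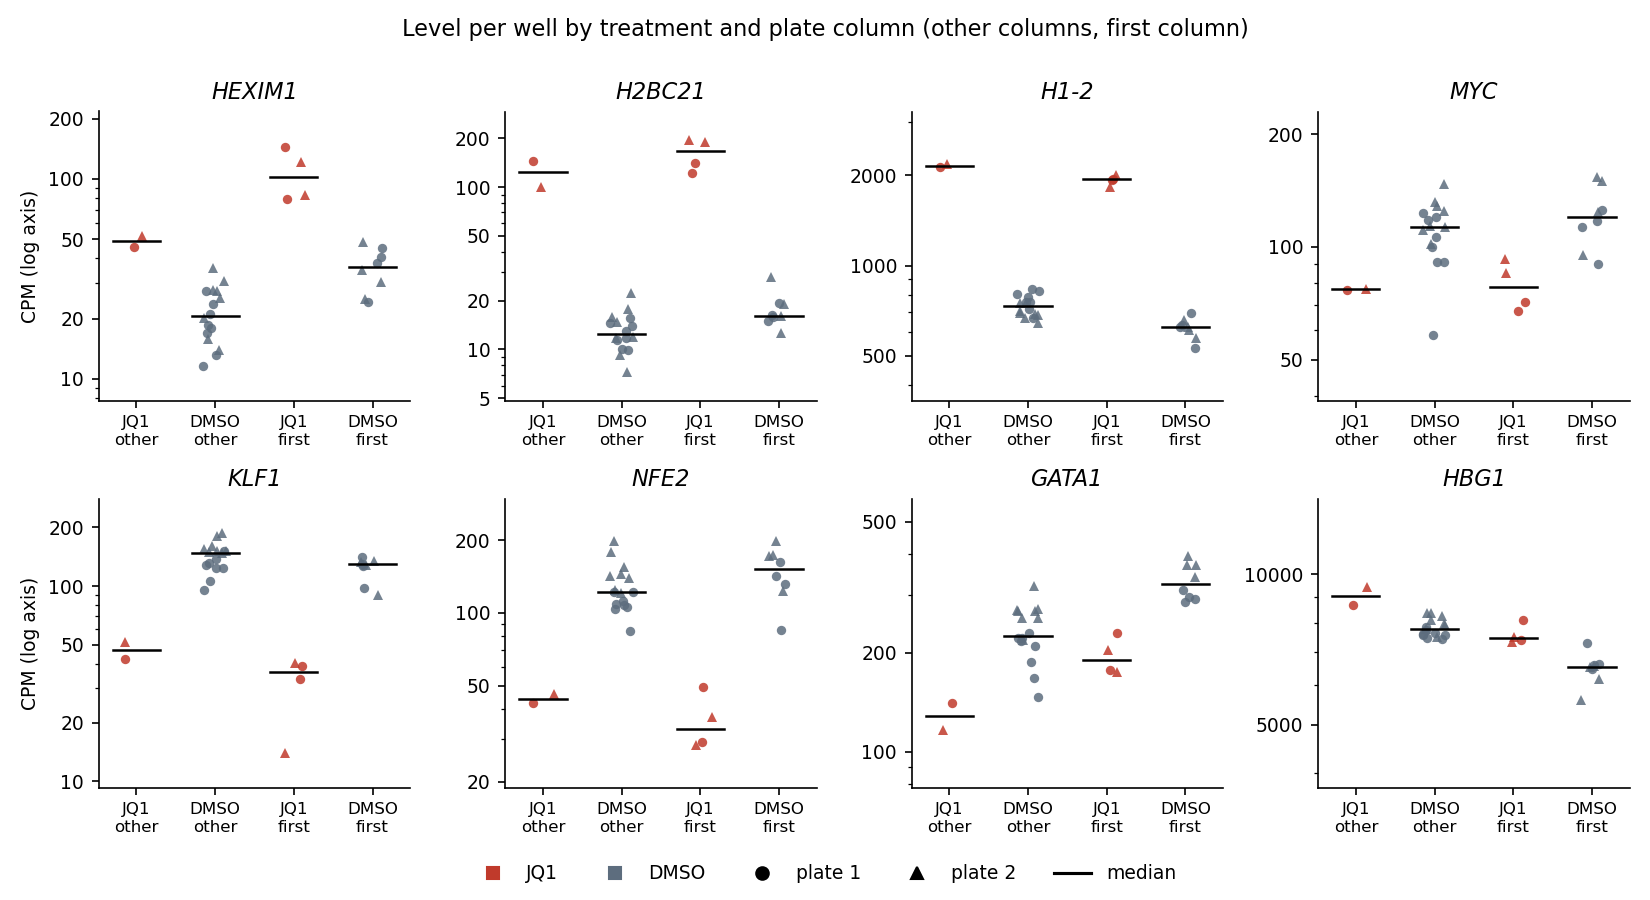
CPM of 8 genes in each well (log axis), by treatment and column class; circles are plate 1, triangles plate 2, bars the median. JQ1 wells of HEXIM1, H2BC21 and H1-2 lie above, and those of KLF1, NFE2 and GATA1 below, all DMSO wells of their own class, while the MYC wells overlap.

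The largest rises were of histone genes. Of 18 members tested 17 rose and 0 fell, beside 13.4% and 11.2% of all genes tested. Their median log2 fold change was 1.46, beside 0.01 over all genes tested. In the first column 13 of 17 rose (median 1.35), and outside it 17 of 18 (median 1.45). H1-2, a linker histone, had 2130 and 2170 CPM in JQ1 wells outside the first column, against 642 to 833 CPM (median 732) in DMSO wells, and 1830, 1930, 1950 and 2010 CPM in JQ1 wells of the first column, against 532 to 693 CPM in DMSO wells. Every JQ1 well held more than every DMSO well of its class, and the log2 fold change was 1.60 (SE 0.05, adjusted p = 4.74e-56 by edgeR). H2BC21, a core H2B gene on chromosome 1 outside the large histone cluster, had 100 and 146 CPM in JQ1 wells outside the first column, against 7.25 to 22.2 CPM in DMSO wells, and 121 to 195 CPM in JQ1 wells of the first column, against 12.6 to 27.9 CPM in DMSO wells. Its difference was 3.19 (SE 0.14).

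H3C4, a core H3 gene that was not on the list, had the largest change of all genes named, 3.73 (SE 0.12), with 191 to 231 CPM in the 4 JQ1 wells of the first column, against 6.34 to 33.7 CPM in its DMSO wells. H2AC11 was at 2.50, H4C8 at 2.48, H2BC5 at 2.26, H2AC6 at 1.77, H2BC11 at 1.57 and H2BC12 at 1.18, all core histone genes. The variants, whose genes are expressed outside S phase, were mostly at smaller values on the log2 scale: H3-3B was at 0.98 (SE 0.05), H2AZ1 at 0.55 (SE 0.04) and H2AZ2 at 0.34 (SE 0.07), though H2AX stood at 1.36 (SE 0.09). H4C3 was the 1 member not called, at 0.00 (SE 0.10, adjusted p = 0.984). Histone genes are alike in sequence and their reads can be assigned to more than 1 gene, so values of single members are uncertain. Reads came from the 3′ ends of mRNAs, and whether histone mRNA as a whole rose was not tested. In DMSO wells 6 of the 18 were lower and 1 higher in the first column (median -0.12), beside 15.4% and 17% of all genes. With ERCC scaling 14 of the 18 were called higher and the median was 1.22.

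The promoters of these genes are shown because members rose together, from RefSeq (GRCh38.p14) by symbol, as the 130 bases before the annotated start, 5′ to 3′ on the gene's strand. Capitals mark the octamer ATTTGCAT, CCAAT and TATAAA on either strand, the letters that histone promoters are known for, with HEXIM1 set beside them.
H2BC21 (chr1:149886683-149886812, minus strand): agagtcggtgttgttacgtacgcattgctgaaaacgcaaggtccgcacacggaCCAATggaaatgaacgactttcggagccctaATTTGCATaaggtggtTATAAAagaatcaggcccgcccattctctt
H2BC11 (chr6:27132796-27132925, minus strand): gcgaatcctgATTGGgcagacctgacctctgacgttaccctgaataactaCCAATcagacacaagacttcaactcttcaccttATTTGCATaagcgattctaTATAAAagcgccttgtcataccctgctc
H2BC12 (chr6:27146859-27146988, minus strand): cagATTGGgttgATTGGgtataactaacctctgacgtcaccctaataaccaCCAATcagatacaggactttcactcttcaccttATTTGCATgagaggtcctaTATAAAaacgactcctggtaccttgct
H2AC6 (chr6:26124042-26124171, plus strand): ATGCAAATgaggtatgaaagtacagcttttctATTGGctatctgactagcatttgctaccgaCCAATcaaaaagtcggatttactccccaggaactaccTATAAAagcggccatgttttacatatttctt
HEXIM1 (chr17:45148345-45148474, plus strand): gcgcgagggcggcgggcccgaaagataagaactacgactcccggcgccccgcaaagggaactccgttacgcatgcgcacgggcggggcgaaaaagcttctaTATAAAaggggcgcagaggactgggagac

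In the 3 H2B promoters the octamer began at position -46 or -47 and TATAAA between -27 and -30, counted back from the start. H2AC6 had the octamer reversed at -130 and TATAAA at -31, and HEXIM1 held TATAAA at -29 with no octamer or CCAAT. KLF1, which fell and whose promoter is not shown, held CCAAT at -50 with no octamer or TATAAA. Among the 17 histone genes that rose, 6 held the octamer (35.3%), 13 CCAAT (76.5%) and 10 TATAAA (58.8%) in this window. Among 5063 genes tested, with 1 promoter each, 0.593% held the octamer, 27.4% CCAAT and 2.69% TATAAA, and among all 35116 promoter entries the shares were 0.914%, 21.5% and 5.99%. Since 17 of the 18 histone genes tested rose, these shares describe histone promoters. They cannot tell genes that rose from histone genes that did not. A match describes letters only, and no binding was measured.

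Of the 35 histone genes listed 26 were matched by symbol, so 9 could not be counted. Among the other large rises was SAT1, which acetylates spermidine and spermine for export. It had 217 and 235 CPM in JQ1 wells outside the first column, against 41.5 to 90.8 CPM in DMSO wells, and was at 1.95 (SE 0.10, adjusted p = 2.08e-34). AC093323.1 was at 2.64 (SE 0.11). The remaining 5 of the 12 largest rises had identifiers for which no symbol was found. They may include histone genes that could not be matched, and no role is given to them here. ENSG00000183558, with 1390 and 1450 CPM in JQ1 wells outside the first column, against 180 to 280 CPM in DMSO wells, was at 2.73 (SE 0.05), and ENSG00000182217 at 2.82 (SE 0.08).

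Transcription factors of the red cell lineage were lower. Of 16 tested, 11 fell and 1 rose (median -1.08), beside 11.2% and 13.4% of all genes tested. In the first column 6 of 9 fell (median -0.91), and outside it 10 of 16 (median -1.16). KLF1, the activator of adult globin genes, had 42.3 and 51.9 CPM in JQ1 wells outside the first column, against 95.5 to 188 CPM (median 148) in DMSO wells, and 13.9, 33.5, 38.9 and 40.5 CPM in JQ1 wells of the first column, against 90.6 to 142 CPM (median 130) in DMSO wells. The groups did not overlap, and the log2 fold change was -1.71 (SE 0.13, adjusted p = 1.3e-20 by edgeR). NFE2, the erythroid bZIP factor, had 42.3 and 46.2 CPM in JQ1 wells outside the first column, against 84.5 to 198 CPM in DMSO wells, and 28.4 to 49.5 CPM in JQ1 wells of the first column, against 85.1 to 198 CPM in DMSO wells. It was at -1.75 (SE 0.14).

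GATA1, the lineage's master factor, differed by column as well as by treatment. Outside the first column it had 117 and 141 CPM in JQ1 wells, against 147 to 319 CPM (median 225) in DMSO wells. In the first column it had 174 to 230 CPM in JQ1 wells, against 285 to 392 CPM (median 324) in DMSO wells, so that JQ1 wells of the first column lay within the range of DMSO wells outside it. In DMSO wells alone GATA1 was higher in the first column by 0.50 (SE 0.07). With column as a term JQ1 was at -0.82 (SE 0.09, adjusted p = 5.51e-13).

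Partners of GATA1 were among the lower mRNAs. LMO2, the bridge of the GATA1 and TAL1 complex, had 1.15 and 3.13 CPM in JQ1 wells outside the first column, against 6.98 to 27.8 CPM in DMSO wells, and was at -2.35 (SE 0.35, adjusted p = 3.65e-08). TAL1 was at -1.75 (SE 0.28), HEMGN, an erythroid nuclear protein, at -2.18 (SE 0.30), GFI1B, an erythroid repressor, at -1.47 (SE 0.20), and MYB, the progenitor factor, at -1.06 (SE 0.21). MYB was not called in the first column alone (adjusted p = 0.053 by edgeR). In that column only 9 of the 16 factors had enough counts to be tested. STAT5A, which carries BCR-ABL and erythropoietin signals, was at -1.26 (SE 0.14). HHEX, a haematopoietic homeobox factor, was the 1 riser, at 1.00 (SE 0.11, adjusted p = 3.68e-12). The counts were 11 lower and 1 higher with ERCC scaling and with library size as well. In DMSO wells 5 of the 16 factors were higher in the first column and 0 lower, beside 17% and 15.4% of all genes tested. With wells of 23 other compounds in place of DMSO the median was -1.78, with 13 lower.

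Globin and red cell genes moved in both directions. Of 25 globin, haem and red cell genes 9 rose and 5 fell, beside 13.4% and 11.2% of all genes tested. Their median was 0.01. With ERCC scaling 1 was higher and 7 lower (median -0.22), and without the plate 2 well number 22 it was 6 and 2. HBG1, fetal gamma globin, had 8670 and 9450 CPM in JQ1 wells outside the first column, against 7420 to 8380 CPM in DMSO wells, and 7310 to 8120 CPM in JQ1 wells of the first column, against 5610 to 7300 CPM in DMSO wells; it was at 0.22 (SE 0.04, adjusted p = 8.8e-06), a size near the shift between scalings, and the call was lost with library size, with ERCC scaling and without the column term. HBG2 at 0.19 and HBA2 at 0.22 turned to -0.01 each with ERCC scaling, and BLVRB, the biliverdin reductase of red cells, changed sign too. Embryonic HBZ was at -0.01 (SE 0.06, adjusted p = 0.917). Globin pairs share most of their sequence. EPOR, the erythropoietin receptor, was at -1.75 (SE 0.45) but was not called outside the first column alone (adjusted p = 0.0577).

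**Figure D3:**
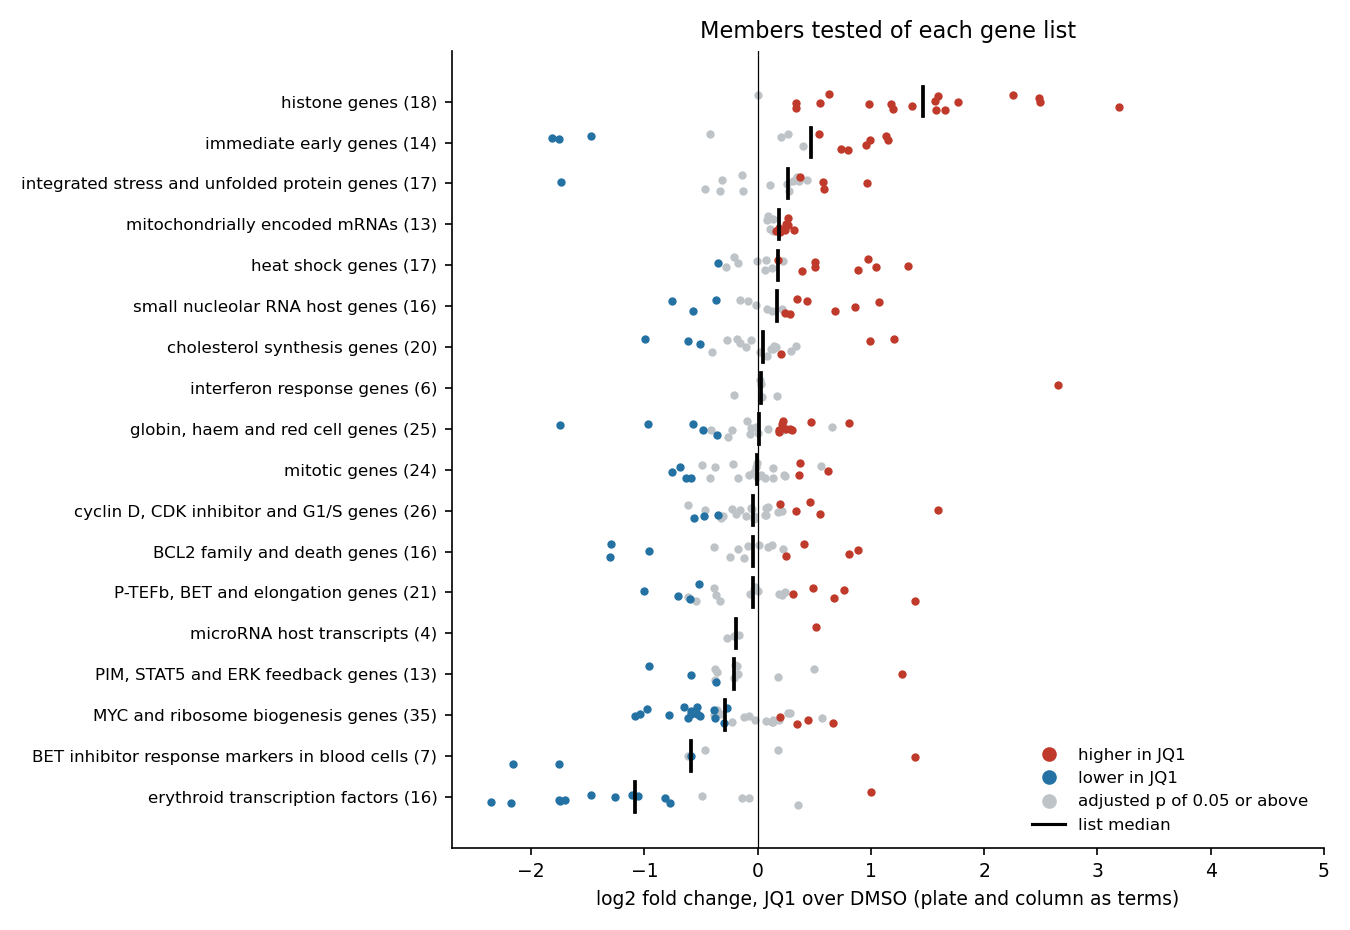
Log2 fold change of JQ1 over DMSO for the members tested of each of 18 gene lists (number tested in brackets); colours give the call, black bars the list median. Histone genes other than H4C3 lie to the right of 0 (median 1.46) and erythroid transcription factors mostly to the left (median -1.08).

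The 12 largest falls over a mean of 5 on the log2 CPM scale included 3 of those factors, NFE2, KLF1 and GFI1B. DHRS3, a retinaldehyde reductase, had 10.4 and 12.5 CPM in JQ1 wells outside the first column, against 29.2 to 62.9 CPM in DMSO wells, and was at -2.18 (SE 0.24, adjusted p = 1.01e-12). FANCD2, of the Fanconi DNA repair pathway, was at -1.96 (SE 0.29), PTPN7, a phosphatase of MAP kinases in blood cells, at -1.86 (SE 0.19), TRIB3, a stress pseudokinase, at -1.74 (SE 0.19), and ICAM2, an adhesion molecule, at -1.50 (SE 0.22). ZNF692, C1orf56, the host transcript SNHG20 and ENSG00000170215 were at -2.05, -1.77, -1.70 and -1.45. C1orf56 and SNHG20 were higher in the first column than outside it in DMSO wells, C1orf56 by 1.52, and without the column term C1orf56 was no longer called.

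Immediate early genes, the first to answer a stimulus, went both ways: 7 of 14 rose and 3 fell (median 0.47), with 5 and 1 without plate 2. The shares over all genes tested were 13.4% higher and 11.2% lower. IER2 had 132 and 146 CPM in JQ1 wells outside the first column, against 49.3 to 80.6 CPM in DMSO wells, and was at 1.15 (SE 0.10, adjusted p = 2.58e-17). JUND, an AP-1 subunit, was at 1.13 (SE 0.15) and ID1, which sequesters basic helix-loop-helix proteins, at 0.74 (SE 0.08), while HES1, a Notch target, was at -1.82 (SE 0.36) and NFKBIA, the NF-κB inhibitor, at -1.47 (SE 0.38). With wells of other compounds in place of DMSO ID1 turned to -0.08. FOS was too low to test, with at most 4.63 CPM in a JQ1 well and 7.49 CPM in a DMSO well.

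Survival genes moved in opposite directions. MCL1, an anti-apoptotic BCL2 relative, had 56.4 and 70.4 CPM in JQ1 wells outside the first column, against 24 to 57.6 CPM in DMSO wells, and 83.3 to 93.2 CPM in JQ1 wells of the first column, against 31.7 to 52.3 CPM in DMSO wells; it was at 0.89 (SE 0.14, adjusted p = 2.69e-07). BCL2L1, which encodes BCL-XL, was at -0.96 (SE 0.17), and the death effector BAK1 and the caspase-8 inhibitor CFLAR both at -1.30 (SE 0.29 and 0.23). CFLAR was at -2.17 in the first column and at -0.70 outside it, where it was not called (adjusted p = 0.0981). Of the 16 members tested 4 rose and 3 fell (median -0.04), beside 24.6% of all genes called. The rises came to 1 without plate 2, without the plate 2 well number 22, with library size and with ERCC scaling. Among 13 PIM, STAT5 and ERK feedback genes 3 fell and 1 rose (median -0.21), with 1 lower without plate 2 and 6 with ERCC scaling; PIM1, a kinase induced by STAT5, was at -0.37 (SE 0.10, adjusted p = 0.00177), and SOCS1, a feedback inhibitor of JAK kinases, at 1.27 (SE 0.26).

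Of 17 heat shock genes 8 rose and 1 fell (median 0.18), beside 13.4% and 11.2% of all genes tested. Without plate 2 there were 4 higher (median 0.06), outside the first column 4, and with ERCC scaling 4 higher and 2 lower (median -0.03). HSPA8, the constitutive HSP70, had 1250 and 1310 CPM in JQ1 wells outside the first column, against 540 to 782 CPM in DMSO wells, and was at 1.04 (SE 0.05, adjusted p = 1.48e-33). DNAJB1, its co-chaperone, was at 1.32 (SE 0.07) and HSPA1B at 0.97 (SE 0.16), although HSPA1A and HSPA1B can share reads. HSP90AA1 was at 0.63 in the first column and 0.11 outside it (adjusted p = 0.427). HSP90AB1, at 0.18, changed sign with ERCC scaling.

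Sterol and nucleotide enzymes held single large changes inside lists with medians near 0. The list counts stand beside 13.4% higher and 11.2% lower among all genes tested. INSIG1, which retains the sterol sensor in the endoplasmic reticulum, had 238 and 279 CPM in JQ1 wells outside the first column, against 91.7 to 151 CPM in DMSO wells, and was at 1.21 (SE 0.08), with the isoprenoid enzyme IDI1 at 0.99 (SE 0.08); 3 of 20 cholesterol genes rose and 3 fell (median 0.05), with 2 and 0 without plate 2 and 2 and 5 with ERCC scaling. RRM2, the small subunit of ribonucleotide reductase, had 327 and 357 CPM in JQ1 wells outside the first column, against 104 to 144 CPM in DMSO wells, and 272 to 426 CPM in JQ1 wells of the first column, against 86 to 145 CPM in DMSO wells. It was at 1.59 (SE 0.07, adjusted p = 3e-37), in a G1/S list of which 5 of 26 rose and 3 fell (median -0.04), with 3 and 0 without plate 2 and 1 and 8 with ERCC scaling.

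Host transcripts of small nucleolar RNAs rose in 7 of 16 cases and fell in 3 (median 0.17), beside 13.4% and 11.2% of all genes. The balance turned with the scaling: 3 were higher and 5 lower with ERCC scaling (median -0.05), and 6 and 5 with library size (median 0.03). SNHG1 had 354 CPM in each of the JQ1 wells outside the first column, against 152 to 221 CPM in DMSO wells, and was at 1.07 (SE 0.07, adjusted p = 1.09e-26), and GAS5 at 0.68 (SE 0.05), while SNHG15 was at -0.76 (SE 0.11). The list also moved with position: 10 of its members were higher and 2 lower in the first column in DMSO wells (median 0.36). Over all genes tested the shares there were 17% and 15.4%. Among 13 mitochondrially encoded mRNAs 8 rose (median 0.19), but the median was -0.02 with ERCC scaling, with 0 called, and 3 of the 8 changed sign. GAPDH, often used as a control gene, was at 0.44 (SE 0.04) and ACTB at 0.26 (SE 0.05).

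JQ1 was also set directly against 3 other compounds in 1 fit of 42 wells (9328 genes tested), in which plate and column were terms and all share the 24 DMSO wells. IBET_762 is a BET bromodomain inhibitor of another design, given in 4 wells; dBET1, in 2 wells, joins JQ1 to a ligand of the ubiquitin ligase subunit cereblon and degrades BET proteins; A485, in 6 wells, inhibits the acetyltransferases CBP and p300. Doses are not given, so none of these comparisons is matched for dose. Against DMSO, JQ1 gave 1016 genes higher and 938 lower (10.9% and 10.1%, 20.9% in all). IBET_762 gave 223 higher and 144 lower (2.39% and 1.54%, 3.93% in all), dBET1 42 and 23 (0.45% and 0.247%, 0.697% in all) and A485 120 and 278 (1.29% and 2.98%, 4.27% in all). The numbers of wells differ and all IBET_762 and dBET1 wells lay outside the first column, so the counts do not rank the compounds.

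Tested directly, 128 genes were higher and 94 lower with JQ1 than with IBET_762 (1.37% and 1.01%, 2.38% in all), and 282 higher and 233 lower than with dBET1 (3.02% and 2.5%, 5.52% in all). Without the plate term 82 genes rather than 128 were higher than with IBET_762, and without plate 2 there were 35 higher and 18 lower. The histone list had a median of 1.40 over DMSO with JQ1 (18 of 20 higher), 0.81 with IBET_762 (13 higher) and 0.19 with dBET1 (0 higher), and 12 of the 20 were higher with JQ1 than with IBET_762. H2BC21 had 98.4 to 191 CPM in JQ1 wells, 52.1 to 70.9 CPM in IBET_762 wells, 19.9 and 23.3 CPM in dBET1 wells and 7.19 to 26.6 CPM in DMSO wells. JQ1 minus IBET_762 was 0.95 for H2BC21 (95% interval 0.65 to 1.26), 0.99 for H3C4 (0.73 to 1.25) and 0.58 for H1-2 (0.46 to 0.71). HEXIM1 was at 1.41 over DMSO with JQ1, 0.69 with IBET_762 and -0.92 with dBET1, the last with an adjusted p of 0.124 by edgeR, and JQ1 was above IBET_762 by 0.72 (0.31 to 1.13, adjusted p = 0.0396) and above dBET1 by 2.33 (1.74 to 2.92).

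Erythroid factors separated JQ1 from IBET_762. Of 19 tested 12 were lower than DMSO with JQ1, 5 with IBET_762, 0 with dBET1 and 8 with A485, and 7 were lower with JQ1 than with IBET_762 in the direct test. NFE2 had 27.8 to 49.3 CPM in JQ1 wells, 93 to 158 CPM in IBET_762 wells, 200 and 205 CPM in dBET1 wells and 83.6 to 196 CPM in DMSO wells; JQ1 minus IBET_762 was -1.78 (-2.11 to -1.44). GATA1 differed by -0.98 (-1.20 to -0.76) and KLF1 by -1.0 (-1.35 to -0.66). BCL2L1 was at -0.98 over DMSO with JQ1 and -0.03 with IBET_762, a difference of -0.95 (-1.37 to -0.52). CNOT9, of the mRNA deadenylase complex, FANCD2 and C1orf56 were further below IBET_762, at -1.80, -2.13 and -2.40. All IBET_762 wells lay outside the first column, so these differences rest in part on the column term. In DMSO wells the first column stood higher by 1.52 for C1orf56, 0.94 for FANCD2, 0.50 for GATA1 and 0.24 for NFE2. KLF1 was at -0.22 there.

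Other members did not pass the direct test. For MYC, JQ1 minus IBET_762 was -0.36 (95% interval -0.66 to -0.06, adjusted p = 0.257) and JQ1 minus dBET1 was -0.06 (-0.41 to 0.28). PIM1 differed from IBET_762 by 0.01 (-0.26 to 0.28) and MCL1 by 0.33 (-0.01 to 0.67). HBG1 differed by 0.12 (0.00 to 0.23, adjusted p = 0.351), and BRD2 by 0.30 (-0.04 to 0.64). Against A485, 833 genes were higher and 789 lower with JQ1 (8.93% and 8.46%, 17.4% in all): the histone list was higher in 17 of 20, while KLF1 differed by -0.18 (-0.57 to 0.22) and GATA1 by 0.11 (-0.13 to 0.35). Of the 19 erythroid factors 5 were lower with JQ1 than with A485 and 2 higher (median -0.31); LMO2 differed by -2.62 (-3.38 to -1.86), NFE2 by -0.58 (-0.97 to -0.19) and HHEX by 0.96 (0.68 to 1.25).

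**Figure D4:**
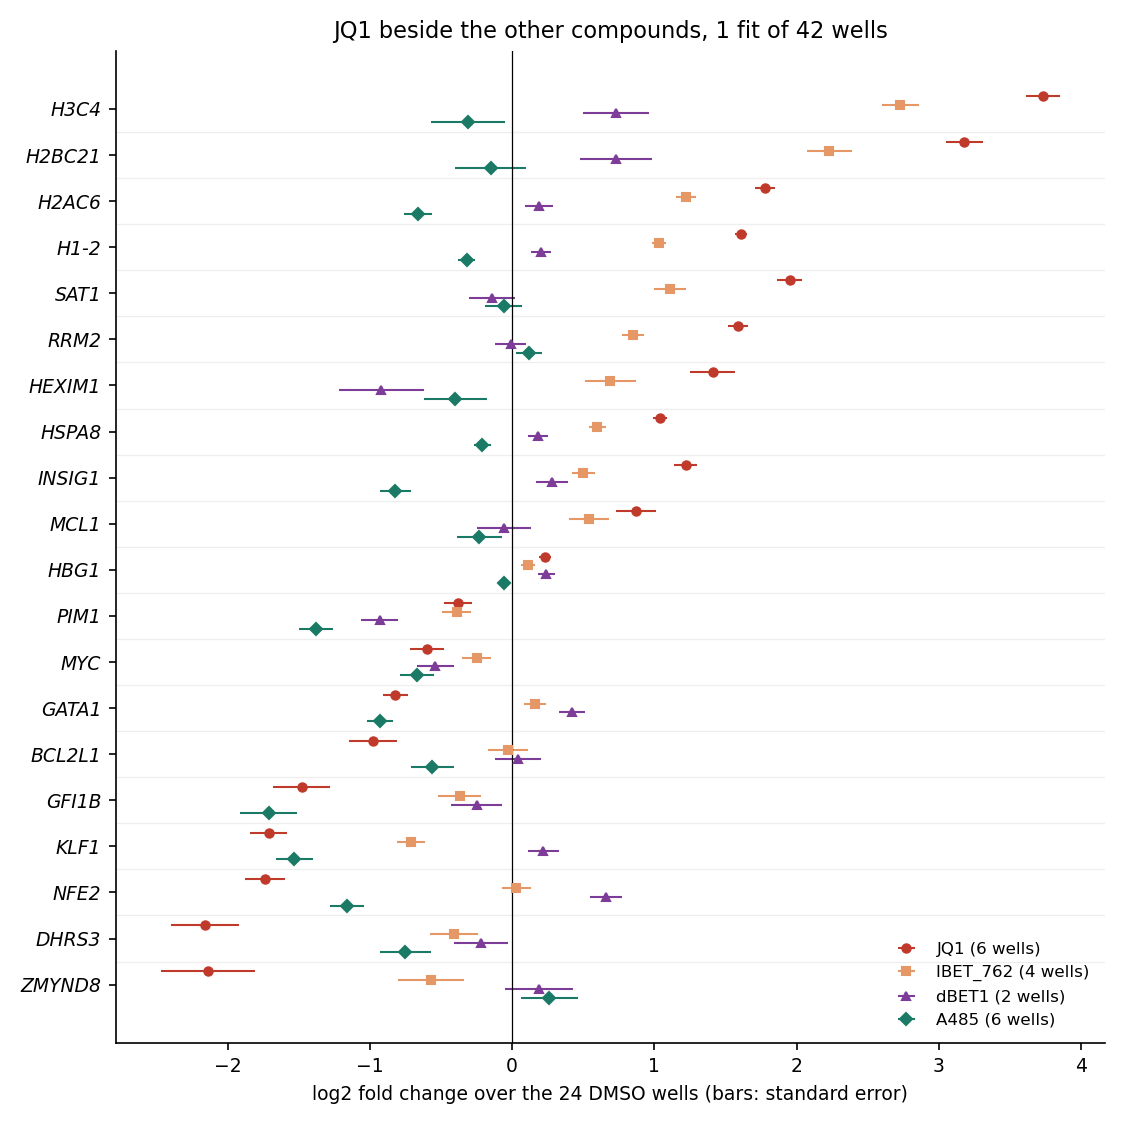
Log2 fold change over DMSO of 20 genes for JQ1, IBET_762, dBET1 and A485 from 1 fit of 42 wells, with bars of 1 standard error. H3C4, H2BC21 and H1-2 decline in the order JQ1, IBET_762, dBET1 and A485, and NFE2 and GATA1 lie below 0 with JQ1 and A485 only.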

How the data were processed

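The submitters' processing notes name bcl2fastq (2.17.1.14), FastQC (0.11.6), cutadapt (2.1), R (4.0.2) and the build GRCh37 (hg19). No source used here gives the aligner, counting program, annotation or use of strand, so overlapping and antisense genes cannot be told apart. Per the labels' protocols, wells of a plate were pooled after reverse transcription. The deposited values are read counts per gene and well, entered here under the unit for expected counts since some of the 6 summary lines (left out) are fractional, whereas all 57905 gene lines and 92 ERCC lines are whole. Symbols were found for 52338 gene lines, 12800 of them only through GENCODE release 29. The deposited annotation names each well's compound.

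Genes passing filterByExpr (minimum count 10) were scaled by TMM to CPM and tested with edgeR 4.0.16 in R 4.3.3 (quasi-likelihood, terms for treatment, plate and first column, Benjamini-Hochberg over 7389 genes, threshold 0.05). Standard errors were derived from the F statistic; 95% intervals are approximate and cover the spread between wells. The test was checked on simulated data. Plates pair by position, since a well number holds the same compound and barcode on both, so plate is the replicate block. Counts of same-numbered JQ1 wells differed by a chi-square of 1.14 to 1.42 for every degree of freedom, and none were identical. The first-column term assumes row-wise numbering. Alternatives used DESeq2 1.42.0, limma 3.58.1 (voom), other scalings, filters and wells, and 23 other compounds (48 wells). The plate interaction and promoter windows were chosen after seeing the data. Members and the 18 gene lists were chosen with earlier results of these data known. Named genes are the 12 largest changes per direction with a mean log2 CPM over 5 and 1 sign in all 6 JQ1 wells, the smallest p-values of each list, and set examples; other genes named come from the lists. Some members of the lists are not reported here by name.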

Additional observations from a re-analysis of the deposited data

Results flagged for a closer look

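Among the 97 named genes, 7 had 1 JQ1 well far from the other 5; chance alone flags about 1 gene in 20. Values are log2(CPM + 1) minus the DMSO mean of the same plate and column class. In the first-column well number 49 of plate 2, the mitochondrial mRNAs MT-CO3, MT-ND4, MT-ND3 and MT-CO1 were at 0.71, 0.53, 0.52 and 0.68, above the other JQ1 wells. ZMYND8 was lowest there, at -4.95, where its count was 0. KLF1 was lowest in well number 61 of plate 2, at -3.03 against -1.85 to -1.53 in the other JQ1 wells. ACTB was lowest in well number 49 of plate 1, at -0.02.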

How the results depend on the processing

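Of the 87 named genes called for JQ1 against DMSO, 49 kept direction and call in all 19 alternatives. Without the first-column term 524 genes were higher and 473 lower, 381 and 1443 when scaled by library size, 160 and 1524 when scaled to ERCC, outside the first column 704 and 517, in the first column 260 and 234, and with other compounds in place of DMSO 1291 and 1401. Leaving out a plate or 1 JQ1 well gave 343 (without plate 2) to 989 higher and 254 (without plate 2) to 842 lower; the lowest counts for 1 well left out, the plate 2 well number 22, were 556 and 505, and without plate 1 there were 672 and 521. With ERCC scaling HBG2, HBA2 and EBP turned to -0.01, -0.01 and -0.00, and with other compounds in place of DMSO ID1 to -0.08. Without the replicate block (plate) 865 were higher and 771 lower, and 1 named call was lost, DLEU2.

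For the first column against the others in DMSO wells, library size alone gave 673 lower and no filter 778 higher; without a plate 611 to 760 were higher and, without plate 2, 653 lower. JQ1 against IBET_762 gave 82 higher without the replicate block, 62 higher and 159 lower with library size, and without a plate 35 to 75 higher and 18 to 50 lower. JQ1 against dBET1 gave 155 lower with no filter, and without a plate 115 to 122 higher and 56 to 64 lower. JQ1 against A485 gave 408 higher and 1260 lower with library size, and without a plate 336 to 483 higher and 259 to 335 lower. Between JQ1 positions, 1 gene was lower for 49 against 61 with no filter, 1 higher for 49 against 22 with library size, with no filter or without plate 1, and 1 higher and 1 lower for 61 against 22 with limma-voom. The cause of these moves was not tested, except that leaving out wells leaves fewer samples. First-column wells held lower counts, which limits calls of low genes there.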

Other observations

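Among all genes tested 24.6% were called. Of 24 mitotic genes 3 rose and 4 fell (median -0.01), with 3 and 1 without plate 1, 1 and 2 without plate 2 and 1 and 5 with ERCC scaling: NUSAP1, a spindle protein, was at 0.62 (SE 0.10) and PLK1, the mitotic kinase, at -0.63 (SE 0.12). Of 17 genes of the integrated stress and unfolded protein responses 4 rose and 1 fell (median 0.27), and TRIB3 was the fall. Higher calls came to 1 without plate 1, 1 outside the first column and 0 in it, and with ERCC scaling 1 was higher and 4 lower. SESN2 was at 0.97 (SE 0.26) and was not called outside the first column alone (adjusted p = 0.0967 by edgeR). Of 6 interferon response genes (median 0.03) 1 rose: IRF7, a regulator of interferon genes, had 23.5 and 41.5 CPM in JQ1 wells outside the first column, against 2.00 to 13 CPM in DMSO wells, and was at 2.65 (SE 0.23, adjusted p = 1.9e-18 by edgeR). Of 4 microRNA host transcripts (median -0.19) DLEU2 rose, at 0.52 (SE 0.20), a call that was lost in most alternatives.

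Genes that rose and fell differed in structure, as GENCODE release 29 annotates them. Among genes that rose, 30.07% had a single exon and 28.3% were pseudogenes; among genes that fell the shares were 3.8% and 1.6%, and among all genes tested 15.83% and 15.4%. Among the rises with a log2 fold change of at least 1, 30.51% had a single exon but 5.1% were pseudogenes (3 of 59). The median span was 6.7 kb for genes that rose, 18 kb for genes that fell and 18 kb for all tested. Reads of a pseudogene can come from its parent gene, and whether these shares come from that was not tested. Genes that rose also stood at higher levels, with a median log2 CPM of 7.33 against 5.15 for falls and 5.2 for all tested. With ERCC scaling 208 of the 988 rises lay below 0. Whether structure differs between rises and falls of equal level was not tested.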
